A study of Mus musculus with 6 samples.

Results

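The genes described here are 36 mouse genes that interferons induce or that load and present peptides to T cells. Each was found in the deposited table by its gene name on a row with an Ensembl transcript (34 genes), or, where no row had the name, by its Ensembl transcript (Igtp and Cd74), out of 42612 loci in all. By role they comprise 16 effectors of the type I interferon response, 6 sensors and transcription factors of that response, 7 genes typical of type II interferon, 4 genes of MHC class I presentation and 3 genes of MHC class II presentation. The tested livers came from 3 male ICR mice, an outbred stock, labelled as 8 weeks old, which had received sulfasalazine (SASP) at 1000 mg/kg by oral gavage for 4 weeks. The control livers came from 3 male ICR mice of the same labelled age that received the 0.1% DMSO vehicle, in which SASP was also given. Each arm of the study held 10 mice, of which 3 are in the files, and each library is a separate numbered liver sample per the labels. Sulfasalazine is an anti-inflammatory drug of inflammatory bowel disease and arthritis, and per the series' title the study asked how it injures the liver.

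Type I interferons signal through the receptor chains IFNAR1 and IFNAR2 and the kinases JAK1 and TYK2 to a STAT complex with IRF9, which binds interferon-stimulated response elements in the promoters of antiviral genes. Type II interferon, interferon gamma, is made mainly by T and NK cells and signals through STAT dimers that bind gamma-activated sites, inducing guanylate-binding proteins, immunity-related GTPases, chemokines and the MHC machinery. MHC class I molecules are made by nearly all cells, hepatocytes included, whereas class II molecules are made mainly by macrophages, dendritic cells and B cells.

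The promoters of the genes on which the results turn are shown first, since response elements are what these genes are known to share. RefSeq promoters on GRCm38.p6 were found for 28 of the 36 genes, and the 250 bases before the start were searched on both strands for the core of the interferon-stimulated response element, GAAA followed after 2 bases of any kind by a second GAAA, and for the gamma-activated site, TTCNNNGAA. The response element core was present in 13 of the 28 genes, against 3.46% of the 27025 genes with a promoter, and the gamma-activated site in 5 of 28, against 8.13%. The core was found in 6 of 11 type I effectors with a promoter, 1 of 5 sensors and factors, 5 of 7 type II genes, 1 of 4 class I genes and 0 of 1 class II gene. In the following stretches, written in the direction of the gene, capitals mark every match to either motif. Rsad2, Ifit1 and Cxcl10 are shown as genes that hold the core and whose values did not overlap between the groups. Isg15 is shown for its 3 overlapping matches, Igtp for holding both motifs, and B2m as the most abundant gene of the set.
Rsad2 (chr12:26456453-26456702, minus strand): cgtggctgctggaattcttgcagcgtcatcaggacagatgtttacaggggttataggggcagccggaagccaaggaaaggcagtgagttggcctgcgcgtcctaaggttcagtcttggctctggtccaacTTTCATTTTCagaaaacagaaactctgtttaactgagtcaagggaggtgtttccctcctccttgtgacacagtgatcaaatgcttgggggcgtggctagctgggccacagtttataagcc
Ifit1 (chr19:34640639-34640888, plus strand): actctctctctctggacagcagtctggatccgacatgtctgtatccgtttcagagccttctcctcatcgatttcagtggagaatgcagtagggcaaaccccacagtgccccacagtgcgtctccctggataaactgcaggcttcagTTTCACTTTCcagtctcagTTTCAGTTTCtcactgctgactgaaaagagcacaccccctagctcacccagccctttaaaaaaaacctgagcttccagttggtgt
Cxcl10 (chr5:92348890-92349139, minus strand): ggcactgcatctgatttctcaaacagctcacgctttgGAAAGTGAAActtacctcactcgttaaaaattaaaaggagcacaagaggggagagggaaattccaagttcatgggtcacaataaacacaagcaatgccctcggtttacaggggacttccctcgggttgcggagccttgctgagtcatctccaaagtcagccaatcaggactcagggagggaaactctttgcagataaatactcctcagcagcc
Isg15 (chr4:156200819-156201068, minus strand): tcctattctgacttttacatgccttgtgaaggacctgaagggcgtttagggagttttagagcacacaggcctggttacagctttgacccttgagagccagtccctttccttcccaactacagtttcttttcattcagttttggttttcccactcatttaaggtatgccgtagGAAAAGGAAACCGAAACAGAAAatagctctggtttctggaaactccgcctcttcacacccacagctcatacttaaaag
Igtp (chr11:58199306-58199555, plus strand): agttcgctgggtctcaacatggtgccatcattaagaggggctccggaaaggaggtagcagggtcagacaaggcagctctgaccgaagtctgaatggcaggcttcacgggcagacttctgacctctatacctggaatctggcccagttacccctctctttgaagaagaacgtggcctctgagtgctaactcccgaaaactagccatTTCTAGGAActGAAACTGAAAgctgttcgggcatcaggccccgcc
B2m (chr2:122147437-122147686, plus strand): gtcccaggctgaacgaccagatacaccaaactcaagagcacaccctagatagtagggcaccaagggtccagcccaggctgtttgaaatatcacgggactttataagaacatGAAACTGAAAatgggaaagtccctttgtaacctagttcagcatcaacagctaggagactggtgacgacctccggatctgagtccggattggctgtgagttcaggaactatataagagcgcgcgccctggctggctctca
Among the genes without overlap, Ifit1 held 2 cores and Rsad2, Cxcl10 and Stat2, the locus with lower SASP values, held 1 each, whereas the promoter of Cxcl9 held neither motif. For Mx2 and Zbp1, also without overlap, no promoter was found. Isg15, with 3 cores, had SASP values on both sides of the controls. A match is a description of the letters and not a measured binding site.

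The values are FPKM, fragments scaled to transcript length and library, so they do not hold the read depth and allow no counting interval. FPKM summed to between 224434 and 260047 per library. The liver label was borne out by the hepatocyte marker Alb, between 14702 and 18897 FPKM in each library. Values were tested as log2(FPKM + 1) by limma over the 11969 loci that reached 1 FPKM in 3 or more libraries, with Benjamini-Hochberg adjustment at 0.05. Differences are SASP minus control of these log2 values, a scale that shrinks the differences of low genes, and the p-values measure the spread between these livers. In whole liver, fewer cells of a type and less RNA per cell cannot be told apart.

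None of the 36 genes passed the threshold. Of the 26 that reached the filter, 0 were higher and 0 were lower by limma, where 0.0167% of all tested loci were higher and 0% were lower. At an unadjusted p under 0.05 there was 1 higher gene, Rsad2, where 3.64% of tested loci were higher, and 0 lower genes, where 3.87% were lower. Adjusted p-values by limma lay between 0.382 and 0.996. Rsad2 reached the filter through the SASP livers alone. The other 10 genes lay too low, and all 36 reached 0.1 FPKM in 3 or more libraries, so they were also tested among the 23205 loci that met this lower limit. There 0 of the 36 were higher by limma, where 0.00431% of loci were, and 0 were lower. At an unadjusted p under 0.05, 2 were higher, Cxcl10 and Rsad2, where 3.02% of loci were, and 1 was lower, the locus of Stat2, where 3.34% were.

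Over all 36 genes the SASP livers lay above the control livers more often than below. The difference was positive for 27 genes and negative for 9, where 48.3% of the 23205 loci and 49.6% of the 11969 loci were positive, and the median was 0.16 against -0.00837 over those loci. SASP and control values did not overlap for 7 genes. For 6 of them all SASP livers were above all control livers (Rsad2, Ifit1, Mx2, Zbp1, Cxcl9 and Cxcl10), where 5.88% of the 23205 loci did so. Of these Rsad2, Ifit1 and Mx2 were among the 26 genes over the 1 FPKM filter, where 6.71% of the 11969 loci did so. For 1 gene, the locus of Stat2, all were below, where 6.31% of the 23205 loci and 6.46% of the 11969 loci did so.

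**Figure D1:**
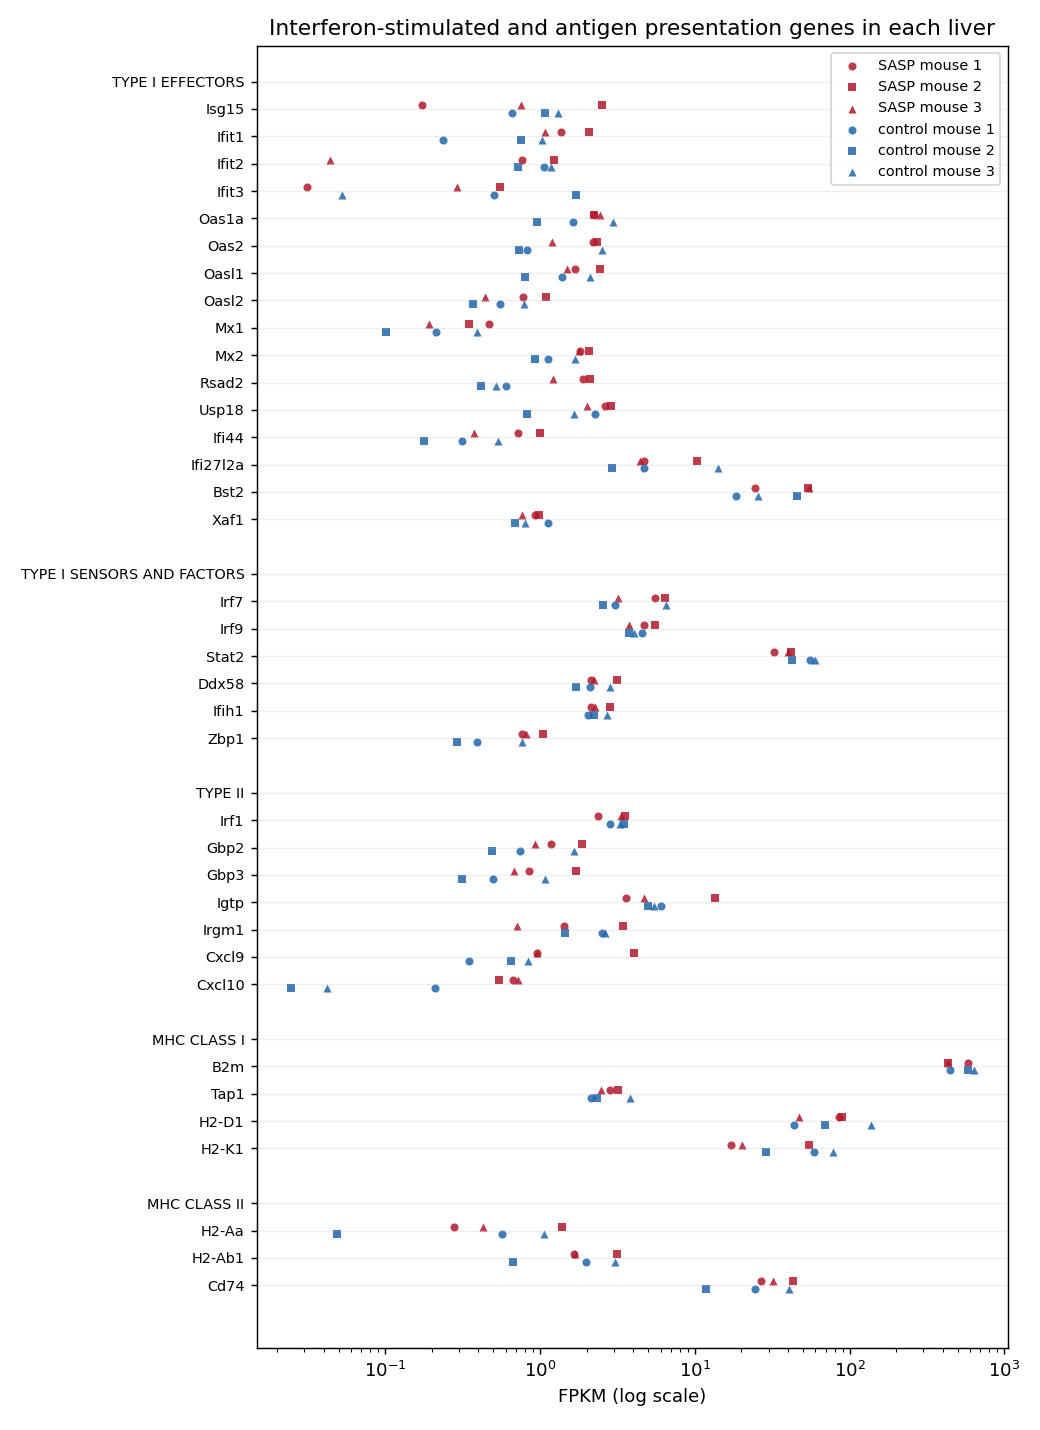
FPKM of each of the 36 genes in each liver on a log axis, with SASP livers in red and control livers in blue, the marker shape giving the mouse number. B2m, at 434 to 632 FPKM, lay far above the effectors of the type I response, most of which lay near 1 FPKM in both groups.

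**Figure D2:**
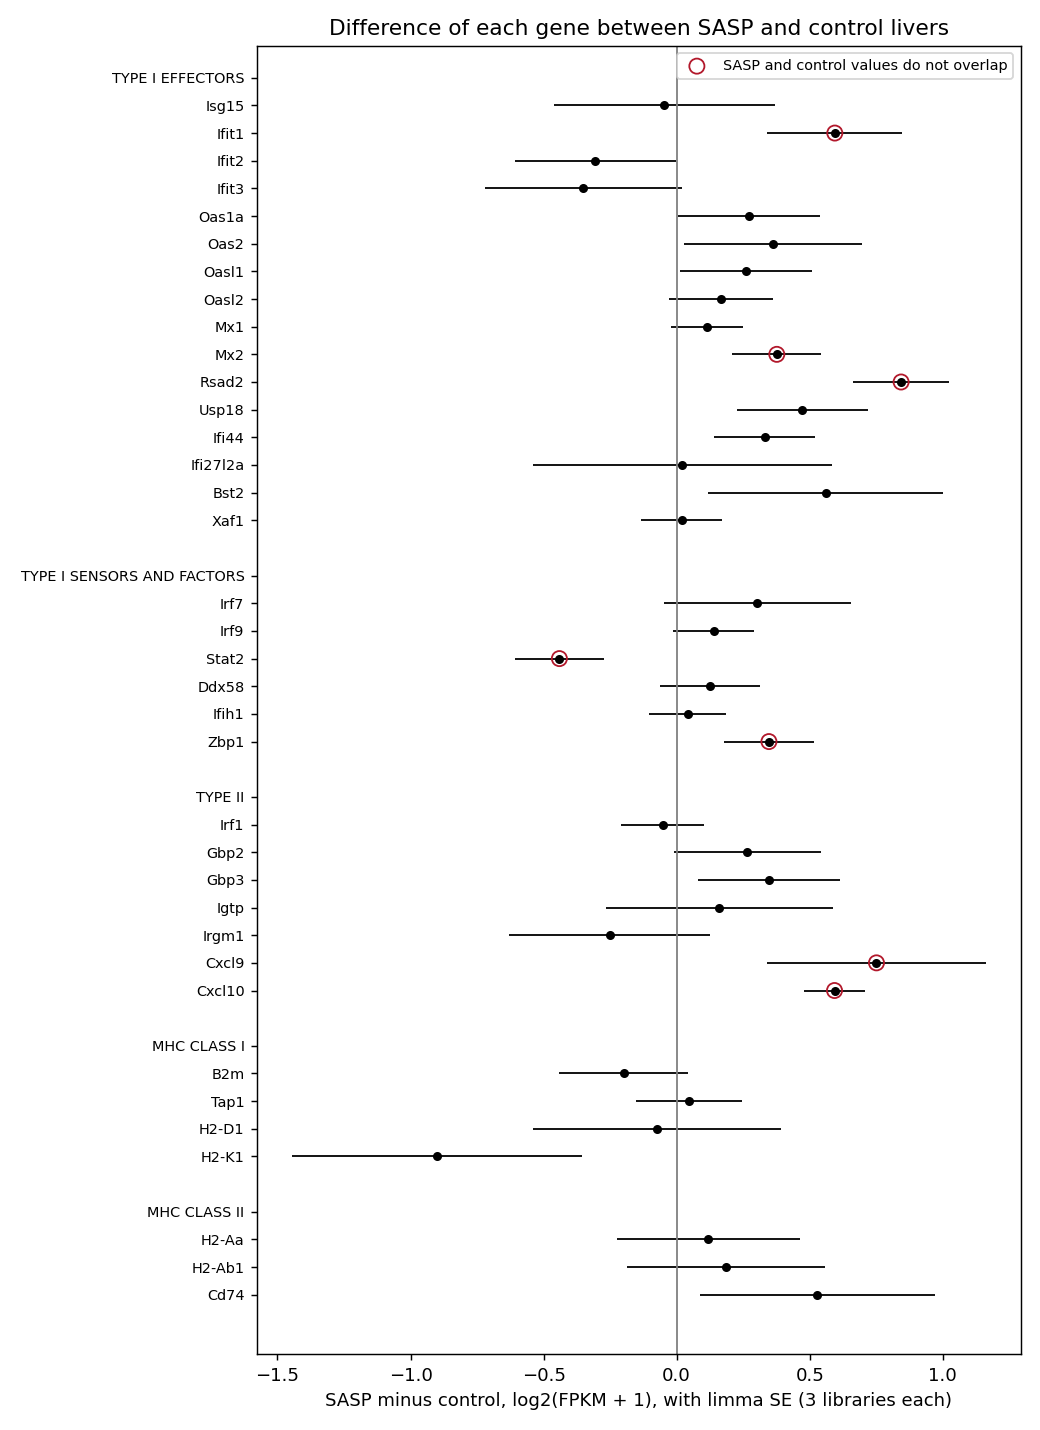
Difference of each gene, SASP minus control on the log2(FPKM + 1) scale, with the limma SE from the fit over the 23205 loci that reached 0.1 FPKM in 3 or more libraries (3 livers per group). Circles mark the 7 genes whose SASP and control values did not overlap; 27 differences are above 0 and 9 are below.

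The type I effectors are the antiviral proteins of the response. Their median difference was 0.27, with 13 of 16 genes positive, and 3 genes had SASP livers above all controls, where 5.88% of the 23205 loci did so. Their mean levels ran from 0.286 to 37.1 FPKM, and 6 of the 16 averaged under 1 FPKM over the 6 livers.

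Rsad2 encodes viperin, a radical SAM enzyme that makes a chain-terminating nucleotide against viral polymerases. It was at 1.91, 2.10 and 1.20 FPKM in SASP mice 1 to 3, against 0.604, 0.415 and 0.516 FPKM in control mice 1 to 3. Every SASP liver had more than any control liver, with means of 1.74 ± 0.473 FPKM in SASP livers and 0.512 ± 0.0949 FPKM in control livers (SD, n = 3 each). The difference was 0.84 with an SE of 0.19 (limma, adjusted p = 0.382), and it lay between 0.75 and 0.99 when any 1 mouse was left out. The gene lies on chromosome 12 from 26442746 to 26456452 in GRCm38, on the minus strand, and 0 of its 50-base windows occur in transcripts of another annotated gene. Its divergent neighbour Cmpk2, a mitochondrial nucleotide kinase that is itself interferon-induced, was at 1.87, 2.04 and 1.29 FPKM in SASP livers, against 1.25, 0.820 and 1.11 FPKM in control livers. The SASP values of Cmpk2 were also all above the controls, with a difference of 0.40 and an SE of 0.17 (limma, adjusted p = 0.677). In all, 2 rows carried the name Cmpk2, and they were not added together.

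Ifit1, a protein that binds RNA lacking a host-type cap, was at 1.37, 2.08 and 1.07 FPKM in SASP livers, against 0.237, 0.748 and 1.03 FPKM in control livers. The groups did not overlap, but SASP mouse 3 and control mouse 3 were almost level. The difference was 0.59 with an SE of 0.26 (limma, adjusted p = 0.691), and 7.06% of its windows also occur in its relative Ifit1bl2. In the rows taken, its relatives on chromosome 19 did not go the same way. Ifit2 was at 0.761, 1.22 and 0.0441 FPKM in SASP livers, against 1.06, 0.719 and 1.18 FPKM in control livers, with a difference of -0.31 and an SE of 0.32 (limma, adjusted p = 0.874). Ifit3 was at 0.0312, 0.554 and 0.292 FPKM in SASP livers, against 0.503, 1.71 and 0.0528 FPKM in control livers. For Ifit2 SASP mouse 3 was the low value. In the row taken for Ifit3 the values of both groups were scattered over a 55.0-fold range, the widest of the 16 effectors. A second row labelled Ifit3, left out of these values, was listed at 1.46, 0 and 0 FPKM in SASP livers. In control livers it was at 0.193, 0 and 0 FPKM. It was thus highest in SASP mouse 1, the lowest liver of the row taken, so the direction of Ifit3 depends on the row. Of the 50-base windows of Ifit3, 51.2% also occur in Ifit3b, so reads of the 2 genes could be divided between them.

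Mx1 and Mx2 encode dynamin-like GTPases that block viral nucleocapsids, and many laboratory strains carry defective alleles. Mx2, which the annotation calls a polymorphic pseudogene, was at 1.82, 2.06 and 1.78 FPKM in SASP livers, against 1.12, 0.931 and 1.67 FPKM in control livers. The groups did not overlap and the difference was 0.38 with an SE of 0.16 (limma, adjusted p = 0.677). A second row labelled Mx2, with an assembled transcript and no Ensembl one, was listed at 0, 0 and 0 FPKM in SASP livers, against 1.12, 0.652 and 1.13 FPKM in control livers. With both rows added the sign turned, to a difference of -0.14 (limma, adjusted p = 0.883). Mx1 stayed at or under 0.470 FPKM in all livers, and its groups overlapped.

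The oligoadenylate synthetases make the messenger that activates RNase L, and Oasl1 and Oasl2 encode relatives of them. Oas1a was at 2.24, 2.21 and 2.45 FPKM in SASP livers, against 1.64, 0.956 and 2.96 FPKM in control livers. Oas2 was at 2.20, 2.34 and 1.19 FPKM in SASP livers, against 0.820, 0.730 and 2.51 FPKM in control livers. In both genes control mouse 3 was the highest liver and control mouse 2 the lowest, so the groups overlapped. Oasl1 and Oasl2 had the same lowest liver, and SASP mouse 2 was the highest in them. The differences of these 4 genes lay between 0.17 and 0.36. Of the windows of Oas1a, 57.6% also occur in Oas1g.

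Isg15, the ubiquitin-like modifier of the response, was at 0.172, 2.50 and 0.758 FPKM in SASP livers, against 0.656, 1.08 and 1.31 FPKM in control livers. The SASP livers thus held both the highest and the lowest value, and the difference was -0.05 with an SE of 0.42 (limma, adjusted p = 0.988). Usp18, the protease that removes ISG15 and damps the type I receptor, was at 2.64, 2.86 and 2.02 FPKM in SASP livers, against 2.27, 0.826 and 1.66 FPKM in control livers. Its groups overlapped only through control mouse 1, with a difference of 0.47 and an SE of 0.24 (limma, adjusted p = 0.730). With 2 further assembled rows labelled Usp18 added, both listed above 0 in control mouse 1 alone, the difference was 0.13 (limma, adjusted p = 0.966). Ifi44 was at 0.722, 0.997 and 0.377 FPKM in SASP livers, against 0.313, 0.179 and 0.536 FPKM in control livers, and these overlapped.

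Bst2, or tetherin, which holds budding virions at the cell surface, was the most abundant effector. It was at 24.4, 53.9 and 54.5 FPKM in SASP livers, against 18.4, 46.0 and 25.4 FPKM in control livers. SASP mouse 1 lay among the controls, and the difference was 0.56 with an SE of 0.44 (limma, adjusted p = 0.837). Ifi27l2a, next in abundance, was at 4.72, 10.3 and 4.40 FPKM in SASP livers, against 4.67, 2.90 and 14.1 FPKM in control livers. One liver of each group stood high, SASP mouse 2 and control mouse 3, and the difference was 0.02 with an SE of 0.55. Xaf1, a partner of the apoptosis inhibitor XIAP, lay between 0.691 and 1.13 FPKM in all livers in the row taken, with a difference of 0.02. Further rows labelled Xaf1, left out of these values, were each listed above 0 in 1 liver alone. They were at 1.58 FPKM in SASP mouse 1, 1.96 FPKM in SASP mouse 2 and 1.45 FPKM in control mouse 2.

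The sensors and factors of the type I response had a median difference of 0.13, with 5 of 6 positive. Ddx58 and Ifih1 encode RIG-I and MDA5, which detect viral RNA in the cytoplasm. Ddx58 lay between 2.13 and 3.13 FPKM in SASP livers and between 1.71 and 2.82 FPKM in control livers. Ifih1 lay between 2.15 and 2.84 FPKM in SASP livers and between 2.03 and 2.71 FPKM in control livers, so neither separated the groups. Further rows labelled Ifih1 were left out of these ranges. One was at 1.88 FPKM in SASP mouse 1 and 0.446 FPKM in control mouse 1. Another was at 0.467 FPKM in control mouse 1 and 0.732 FPKM in control mouse 2. Zbp1, a sensor of Z-form nucleic acid that can trigger necroptosis, was at 0.762, 1.04 and 0.809 FPKM in SASP livers, against 0.393, 0.290 and 0.759 FPKM in control livers. All SASP livers were above the controls, SASP mouse 1 and control mouse 3 being almost level. An exact two-sided permutation test over the 6 livers gave p = 0.1, the smallest that 3 against 3 allows.

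Irf7, the factor that amplifies interferon production, was at 5.57, 6.40 and 3.20 FPKM in SASP livers, against 3.06, 2.57 and 6.51 FPKM in control livers. Control mouse 3 was again the highest liver and control mouse 2 the lowest, and the groups overlapped. Irf9, the DNA-binding part of the STAT complex, lay between 3.75 and 5.57 FPKM in SASP livers and between 3.75 and 4.58 FPKM in control livers, at a locus that also holds transcripts of Rnf31. A second row labelled Irf9, left out of these ranges, was listed at 1.51 FPKM in control mouse 1 and at 0 in the other livers. Irf7 overlaps Phrf1 on the other strand, as B2m overlaps Patl2 and Tap1 overlaps Psmb9, and reads of such pairs cannot be told apart where counting ignores strand.

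The locus of Stat2 was the only 1 of the 36 with all SASP livers below the controls. It was at 32.6, 42.1 and 40.0 FPKM in SASP livers, against 55.3, 42.6 and 59.5 FPKM in control livers, and SASP mouse 2 and control mouse 2 were nearly level. The difference was -0.44 with an SE of 0.18 (limma, adjusted p = 0.671). That locus also holds a transcript of Apof, the gene next to Stat2 on chromosome 10, so the FPKM of the locus cannot be given to Stat2. Apof encodes an apolipoprotein secreted by the liver.

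The type II genes had a median difference of 0.27, with 5 of 7 positive. Cxcl9 and Cxcl10 encode chemokines that draw T and NK cells through the receptor CXCR3. Cxcl10 was at 0.670, 0.543 and 0.721 FPKM in SASP livers, against 0.210, 0.0247 and 0.0418 FPKM in control livers. The lowest SASP liver had more than the highest control liver, with means of 0.645 ± 0.0918 FPKM in SASP livers and 0.0920 ± 0.102 FPKM in control livers (SD, n = 3 each), a ratio of 7.01. Cxcl10 was under the filter of 1 FPKM in every library, and an exact two-sided permutation test over the livers gave p = 0.1, the smallest possible. In the fit over the 23205 loci its difference was 0.59 with an SE of 0.12 (limma, adjusted p = 0.277). Cxcl10 lies on chromosome 5 from 92346638 to 92348889, on the minus strand, inside Art3 on the other strand. The files do not say whether counting used strand, and the row of Art3 itself was at 0.0792 to 0.217 FPKM in SASP livers and 0.0859 to 0.154 FPKM in control livers.

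Cxcl9 was at 0.949, 4.07 and 0.962 FPKM in SASP livers, against 0.347, 0.651 and 0.830 FPKM in control livers. The groups did not overlap, yet SASP mouse 2 alone stood far above, and the other SASP livers were close to control mouse 3 (exact two-sided permutation test over the livers, p = 0.1). In the fit over the 23205 loci its difference was 0.75 with an SE of 0.41 (limma, adjusted p = 0.875).

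**Figure D3:**
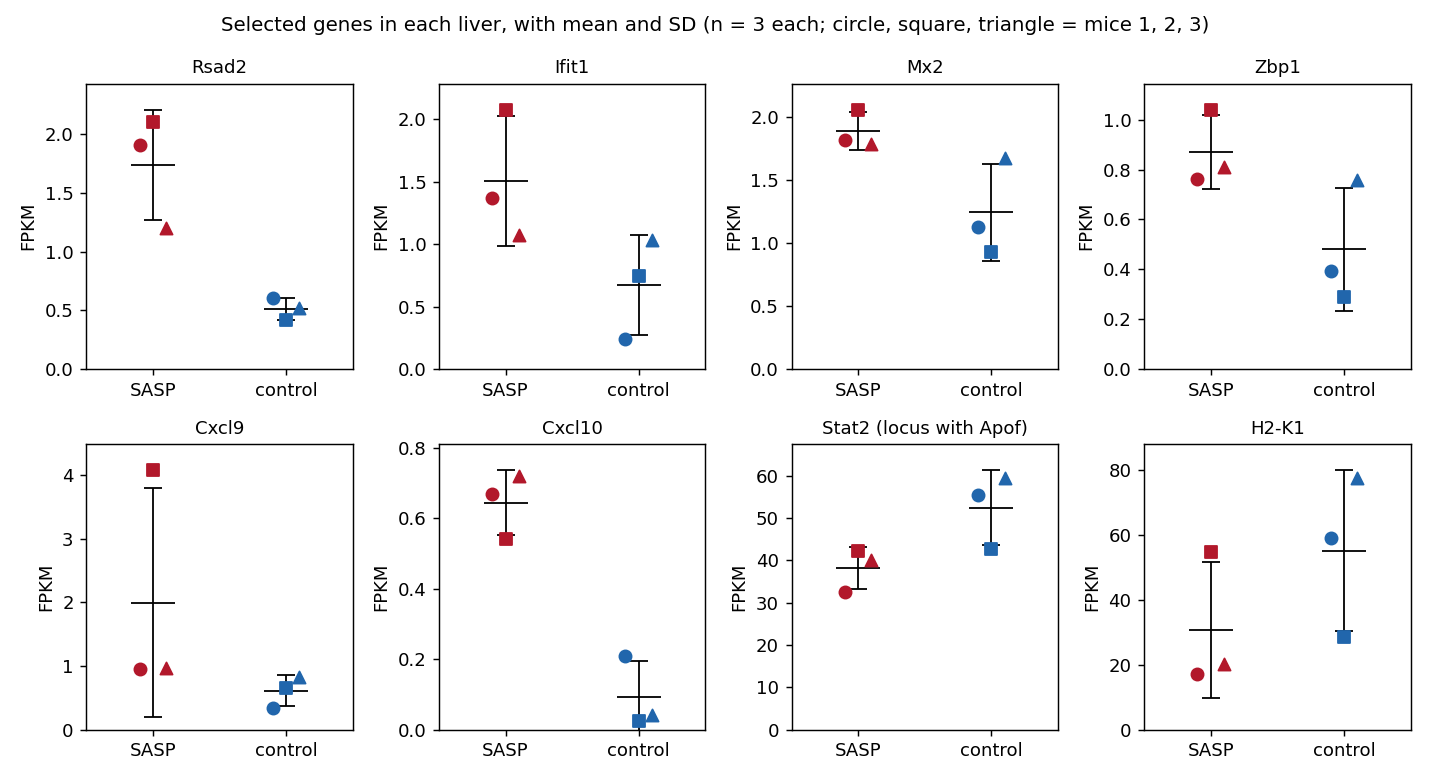
FPKM in each liver, from 0, of the 7 genes whose groups did not overlap and of H2-K1, with mean and SD (n = 3 per group). SASP livers are on the left of each panel. Rsad2 and Cxcl10 show a gap between the groups, whereas in Ifit1, Mx2, Zbp1 and Stat2 the nearest livers of the 2 groups almost touch, and Cxcl9 stands high in SASP mouse 2 alone.

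Igtp and Irgm1 encode immunity-related GTPases, a family that takes part in defence against intracellular pathogens. Igtp shares its locus with Irgm2, which is of the same family, and the locus was at 3.60, 13.4 and 4.72 FPKM in SASP livers, against 6.02, 5.01 and 5.43 FPKM in control livers. SASP mouse 2 was more than any other liver, while the other SASP livers were below all controls, and the difference was 0.16 with an SE of 0.42 (limma, adjusted p = 0.951). Irgm1 was at 1.43, 3.43 and 0.714 FPKM in SASP livers, against 2.51, 1.45 and 2.63 FPKM in control livers, with SASP mouse 2 again highest.

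The guanylate-binding proteins Gbp2 and Gbp3, which coat the vacuoles of intracellular pathogens, were lowest in control mouse 2 and highest in SASP mouse 2. Gbp2 was at 1.17, 1.87 and 0.929 FPKM in SASP livers, against 0.746, 0.486 and 1.66 FPKM in control livers. Gbp3 was at 0.842, 1.72 and 0.679 FPKM in SASP livers, against 0.495, 0.314 and 1.08 FPKM in control livers. Irf1, the transcription factor early in the type II response, lay between 2.35 and 3.54 FPKM in SASP livers and between 2.83 and 3.46 FPKM in control livers, with a difference of -0.05.

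The MHC class I genes, B2m and H2-D1 of which were the most abundant of the 36, had a negative median, -0.14, with 3 of 4 genes negative. Without control mouse 3 this median became 0.07. B2m, the light chain shared by all class I molecules, was at 578, 434 and 434 FPKM in SASP livers, against 446, 583 and 632 FPKM in control livers. The groups overlapped, and the difference was -0.20 with an SE of 0.20 (limma, adjusted p = 0.873). H2-D1, a classical heavy chain, was at 85.7, 89.0 and 47.1 FPKM in SASP livers, against 43.9, 69.1 and 138 FPKM in control livers, a difference of -0.07 with an SE of 0.47. H2-K1, another classical heavy chain, was at 17.2, 54.8 and 20.3 FPKM in SASP livers, against 59.1, 28.6 and 77.5 FPKM in control livers. Each group of H2-K1 had 1 liver inside the range of the other, and the difference of -0.90, the most negative of the 36, had an SE of 0.54 (limma, adjusted p = 0.780). Of the windows of H2-D1 12.8%, and of those of H2-K1 9.63%, occur in other genes, most often H2-Q1 and H2-Q10, and outbred mice carry differing H2 haplotypes. How far reads were lost or moved at these genes was not tested. Tap1, a subunit of the peptide transporter, lay between 2.48 and 3.18 FPKM in SASP livers and between 2.14 and 3.84 FPKM in control livers. All 4 class I genes were highest in control mouse 3.

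The MHC class II genes had 3 of 3 differences positive and a median of 0.19, and in all 3 the highest liver was SASP mouse 2 and the lowest control mouse 2. Cd74, the invariant chain that guides class II molecules, was at 26.9, 42.9 and 32.1 FPKM in SASP livers, against 24.6, 11.7 and 40.3 FPKM in control livers, with a difference of 0.53 and an SE of 0.44 (limma, adjusted p = 0.851). H2-Ab1, the beta chain, was at 1.66, 3.16 and 1.68 FPKM in SASP livers, against 1.97, 0.672 and 3.05 FPKM in control livers. H2-Aa, the alpha chain, was at 0.279, 1.38 and 0.428 FPKM in SASP livers, against 0.563, 0.0491 and 1.07 FPKM in control livers. The range of H2-Aa over the livers was 28.1-fold, and the values of the groups were interleaved. Without control mouse 2 the class II median was -0.14, and without SASP mouse 2 it was -0.03.

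Across the set, single livers stood apart more than the groups did. SASP mouse 2 was the highest liver in 22 of 36 genes, where it was highest in 21.05% of all tested loci. Control mouse 2 was the lowest in 20 of 36, where it was lowest in 14.7% of tested loci. Control mouse 3 was the highest in 9 of 36, 4 of them the class I genes, against 16.3% of tested loci. These shares are over loci that reached the 1 FPKM filter, which 10 of the 36 genes did not, so the levels compared are unlike. Of the 7 type II genes, 6 were highest in SASP mouse 2. As the median over the 36 genes of the level relative to the control mean on the log2(FPKM + 1) scale, SASP mice 1 to 3 were at 0.17, 0.50 and -0.02, and control mice 1 to 3 at -0.04, -0.19 and 0.21. SASP mouse 3 was therefore level with the controls, and control mouse 3 was above SASP mice 1 and 3. The median difference over the 36 genes was 0.40 without control mouse 3, 0.033 without SASP mouse 2, 0.049 without control mouse 2, 0.28 without SASP mouse 1 and 0.28 without SASP mouse 3. Without both SASP mouse 2 and control mouse 3, a setting added after the data were seen, it was 0.22.

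**Figure D4:**
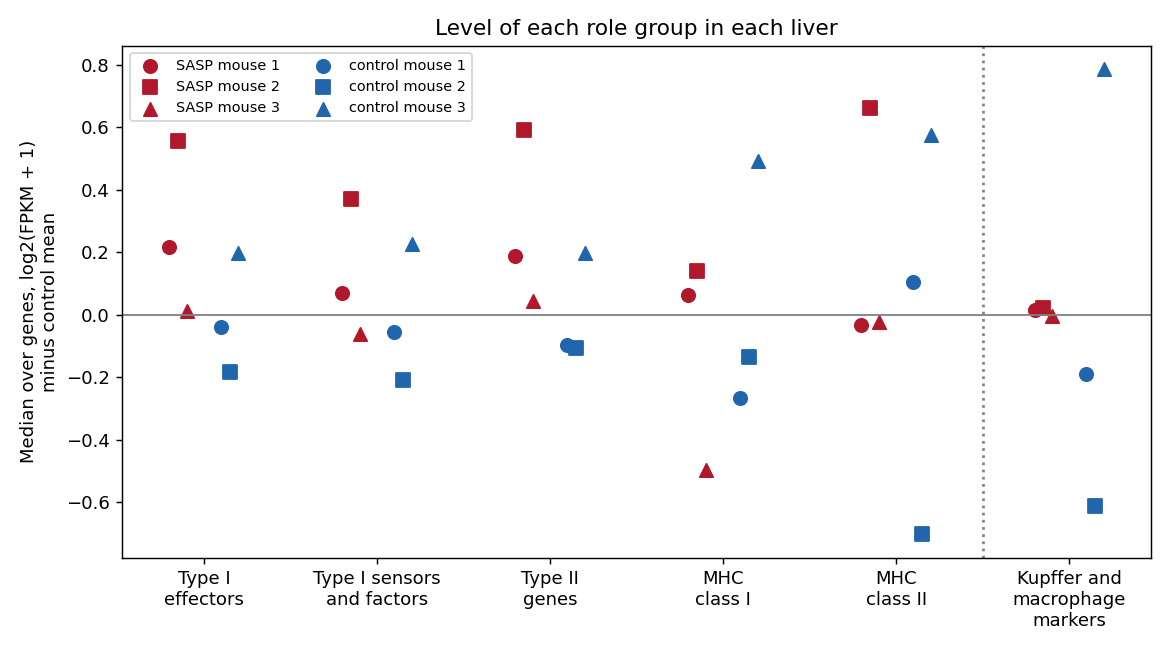
Median over the genes of each role group, in each liver, of the level relative to the control mean on the log2(FPKM + 1) scale, with the 10 Kupffer cell and macrophage markers on the right. SASP livers (red) are left of control livers (blue). SASP mouse 2 is highest in both type I groups, type II and class II, and control mouse 3 is highest in class I and in the macrophage markers.

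Markers of immune cells also differed between single livers, by list. All 10 Kupffer cell and macrophage markers were highest in control mouse 3 and 8 of 10 were lowest in control mouse 2. Their summed level was 135, 113 and 126 FPKM in SASP livers, against 109, 74.4 and 296 FPKM in control livers. None of these markers was at 0 in any liver. The 7 T and NK cell markers, each under 1 FPKM on average and none at 0, summed to 1.66, 2.98 and 1.62 FPKM in SASP livers, against 1.72, 1.36 and 3.08 FPKM in control livers. SASP mouse 2 and control mouse 3 stood high in that sum, but the single markers differed. Cd3g and Gzmb were highest in SASP mouse 2, and Cd3e and Nkg7 in control mouse 3. Cd4 and Ncr1 were highest in control mouse 1 and Cd8a in SASP mouse 3, and Ncr1 was lowest in SASP mouse 2. In the median of the type II genes relative to the control mean, SASP mouse 2 was highest at 0.59. Control mouse 3 was next at 0.20, almost level with SASP mouse 1 at 0.19. The 8 dendritic and B cell markers, also each under 1 FPKM on average, summed to 1.64, 0.670 and 0.682 FPKM in SASP livers, against 0.777, 1.03 and 2.11 FPKM in control livers, and Cd79a and Ms4a1 were at 0 in SASP mouse 2, the liver with the most Cd74. SASP mouse 2 was thus the lowest liver in that sum, and also in that of the neutrophil markers. The 3 neutrophil markers summed to 1.06, 0.394 and 0.489 FPKM in SASP livers, against 0.419, 1.26 and 13.3 FPKM in control livers. Of these markers S100a8 and S100a9 were lowest in SASP mouse 2, whereas Ly6g was highest there, at 0.117 FPKM. The 3 markers of all leukocytes summed to 6.76, 6.52 and 5.49 FPKM in SASP livers, against 7.29, 4.58 and 12.4 FPKM in control livers. The 4 markers of sinusoidal endothelium lay closer together, at 17.1, 23.1 and 22.1 FPKM in SASP livers, against 19.4, 19.5 and 24.1 FPKM in control livers. The part of these cells in the values of the interferon and MHC genes was not tested.

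The rest of the pathway was described from lists of 82 further genes, of which 76 had a row. Irgm2 shares the row of Igtp, Gbp9 that of Gbp4 and Il10rb that of Ifnar2, so 73 further loci were counted, of which 57 reached the filter. By limma 0 were higher and 0 lower past the threshold. At an unadjusted p under 0.05 there was 1 higher and 1 lower locus of the 57, where 3.64% of all tested loci were higher and 3.87% were lower. The median difference of the 73 loci was 0.11. Among the tested loci, SASP livers were all above the controls for 5 of these 57 loci and all below for 1, where 6.71% and 6.46% of all tested loci were. Ifnar1, Irf5, Cmpk2, Eif2ak2 and Rtp4, among others, had more rows of their name, which were not added to these values. Of the interferon ligands, 1 of 7 had a row: Ifng, interferon gamma, was listed at 0.130, 0.122 and 0 FPKM in SASP livers, against 0 in each control liver.

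The receptor and JAK-STAT genes differed little, with a median of 0.11 over 9 loci. Ifnar1, the first chain of the type I receptor, was at 7.80, 7.19 and 6.85 FPKM in SASP livers, against 6.35, 6.38 and 6.80 FPKM in control livers. These values did not overlap, but the difference was 0.14 with an SE of 0.10 (limma, adjusted p = 0.820). Jak2, a kinase of the interferon gamma receptor, lay between 2.81 and 3.47 FPKM in SASP livers and between 1.83 and 3.26 FPKM in control livers.

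Among the sensing genes and factors, Irf5, which drives inflammatory cytokines in macrophages, was the gene lower at an unadjusted p under 0.05. It was at 2.25, 1.81 and 1.83 FPKM in SASP livers, against 2.64, 3.50 and 3.74 FPKM in control livers. All SASP livers were below the controls, with a difference of -0.53 and an SE of 0.14 (limma, adjusted p = 0.437). Trim25, the ligase that activates RIG-I and the most abundant of this list, lay between 19.0 and 23.3 FPKM in SASP livers and between 16.5 and 21.6 FPKM in control livers. Of the negative regulators, Socs3 was at 1.23, 2.31 and 0.195 FPKM in SASP livers, against 2.85, 2.47 and 1.23 FPKM in control livers, and the groups overlapped.

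The 20 other type I induced genes had a median of 0.15, with 15 positive. Besides Cmpk2, the SASP values of Eif2ak2, the kinase PKR that halts translation, were all above the controls, at 2.66, 2.98 and 2.40 FPKM against 2.35, 2.17 and 1.33 FPKM in control livers. Rtp4 was at 1.20, 1.52 and 1.64 FPKM in SASP livers, against 0.866, 1.02 and 1.17 FPKM in control livers. These were 3 of the 15 genes of this list over the 1 FPKM filter with all SASP livers above the controls, where 6.71% of all tested loci did so. Ifitm3, an endosomal block to viral entry and the most abundant of this list, was at 0.140, 134 and 131 FPKM in SASP livers, against 88.4, 87.8 and 161 FPKM in control livers, and its value in SASP mouse 1 stood alone. Its neighbour Ifitm2 had a single low value in another liver, with 25.3, 31.4 and 32.3 FPKM in SASP livers, against 28.6, 0.990 and 30.5 FPKM in control livers.

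The other type II induced genes, on 7 further loci, had a median of 0.30, with 6 positive and 0 without overlap between the groups. Iigp1, the most abundant of these GTPases, was at 87.8, 73.6 and 68.1 FPKM in SASP livers, against 36.6, 57.2 and 75.9 FPKM in control livers (limma, adjusted p = 0.780). Gbp6, at a locus with Gbp10, was at 1.30, 5.03 and 1.97 FPKM in SASP livers, against 0.575, 0.743 and 2.89 FPKM in control livers, with SASP mouse 2 and control mouse 3 again the high livers.

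The 16 other class I pathway genes had a median of 0.03, with 9 positive and 7 negative. Psme1, a subunit of the interferon-inducible proteasome activator PA28, was the gene higher at an unadjusted p under 0.05. It was at 9.75, 14.5 and 9.40 FPKM in SASP livers, against 8.37, 6.14 and 6.38 FPKM in control livers, with a difference of 0.60 and an SE of 0.20 (limma, adjusted p = 0.586). Its partner Psme2 was at 12.7, 14.9 and 13.7 FPKM in SASP livers, against 11.2, 11.7 and 12.8 FPKM in control livers, where SASP mouse 1 lay just inside the controls. Nlrc5, the transactivator of class I genes, lay between 3.97 and 4.81 FPKM in SASP livers and between 2.95 and 4.68 FPKM in control livers. H2-Q10, a secreted class I molecule made by the liver, was at 57.1, 62.3 and 151 FPKM in SASP livers, against 117, 90.3 and 104 FPKM in control livers.

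The 6 other class II pathway genes had a median of 0.15, with 4 positive. H2-Eb1, a class II beta chain, was at 2.61, 6.13 and 2.76 FPKM in SASP livers, against 6.06, 0.0402 and 4.64 FPKM in control livers, and control mouse 2 was the lowest liver, as in the other class II chains. Ctss, the protease that trims the invariant chain and the most abundant of this list, was at 14.4, 16.7 and 14.1 FPKM in SASP livers, against 11.5, 7.81 and 24.2 FPKM in control livers. Ciita, the master activator of class II genes, stayed under 1 FPKM in every liver.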

How the data were processed

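Liver RNA of 3 SASP-treated and 3 control mice was sequenced after depletion of ribosomal RNA, per the labels' protocols. The deposited table has 1 column of FPKM for each library, per the file headers. Per the submitters' processing notes, GRCm38.p5 was the build, and StringTie, Bowtie2, FastQC and cutadapt were used, whose versions are not stated there. Names and coordinates come from GENCODE M21, built on GRCm38, through the transcript IDs. Where several rows fitted a gene, the row with the highest mean FPKM was taken. The test was limma (version 3.58.1, R version 4.3.3) on log2(FPKM + 1) with its trend option, over loci that reached 1 FPKM in 3 or more libraries, with Benjamini-Hochberg adjustment at 0.05; single genes under this filter had exact permutation tests. The procedure was tested on simulated data. The members, lists and rules were chosen with earlier results of these data known. Genes given with every value were those without overlap between the groups, those with an unadjusted p under 0.05, the 2 most abundant and the most variable of each role group, and up to 3 per pathway list by p plus the most abundant; others were added after their values were seen. Alternatives changed the pseudocount, filter, scaling, trend, rows and libraries used. Shared sequence was counted as exact 50-base windows of GENCODE transcripts; promoters are from RefSeq. No protein sequences were compared, and values of some list genes are not reported here. Plots were made in Python 3.11.15 with matplotlib 3.10.9.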

Additional observations from a re-analysis of the deposited data

How the results depend on the processing

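In the 450 recomputed differences of the 26 tested genes, 450 kept their side of the threshold, and the lowest adjusted p by limma was 0.236, for Rsad2 without limma's trend. Under each setting 0 of the 36 genes were called higher and 0 lower. Of all loci, 2 were called higher as reported. Pseudocounts of 0.1 and 0.01 gave 1, dropping the filter 0, filters of 0.1 and 5 FPKM 1 and 6, limma without its trend 23, and loci with an Ensembl transcript alone 9. The 0 called lower became 1, 22 and 3 with the 5 FPKM filter, without the trend and over Ensembl loci. Leaving out 1 mouse gave 1 to 8 higher and 0 to 6 lower loci. The type II median of 0.27 became 0.52 and 0.58 with pseudocounts of 0.1 and 0.01, the type I effector median of 0.27 became 0.43 and 0.52, the class II median of 0.19 became 0.45 and 0.56, and that of all 36 genes, 0.16, became 0.37 and 0.40. Leaving out 1 mouse gave medians of 0.033 to 0.40 for all genes, 0.07 to 0.48 for type I effectors, 0.01 to 0.22 for sensors and factors, 0.10 to 0.51 for type II, -0.40 to 0.07 for class I and -0.14 to 0.47 for class II genes. Class I turned positive without control mouse 3, alone or together with SASP mouse 2 (0.08). Among single genes 11 turned sign without some 1 mouse. Leaving out Stat2, Irf9 and Igtp, whose loci hold another protein-coding gene, gave 0.19 for all genes. A replicate block gave 0 higher and 0 lower loci and 0 called genes among the 36. The deviations of mice that share a number correlated at 0.00967, -0.0668 and -0.0222, and the labels do not pair them. The setting without 2 mice and that without shared loci were chosen after seeing the data. Why these values moved was not tested, and what depth limits among low genes is unknown without read counts.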
